A study of Drosophila melanogaster with 36 samples.

Results

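The basement membrane genes described here are the laminin subunit genes LanA, LanB1 and LanB2, the collagen IV chain genes Col4a1 (older symbol Cg25C) and vkg, and the matrix genes SPARC, Ppn, Pxn and Glt. They were chosen by name, as all probe sets that the platform annotation assigns to these 9 genes, out of 11982 genes that have a probe set of a single symbol. The choice was made with earlier results of these data known. The 9 genes are read by 10 of 18769 probe sets, because Pxn has 2 and each other gene has 1. Embryos of 9 isogenic Drosophila melanogaster lines, Drosophila_17, Drosophila_23, Drosophila_58, Drosophila_75, Drosophila_83, Drosophila_89, Drosophila_128, Drosophila_134 and Drosophila_145, were profiled at 8 h and at 5 h on one-colour Affymetrix arrays. The labels name no treatment or mutation, and an isogenic line, a stock bred until its flies carry nearly the same genome, is a single genotype. Each line had 2 RNA samples at each time, but 1 of the 5 h arrays has a title without a line, which left 18 arrays at 8 h, 17 at 5 h and a single 5 h array for line Drosophila_17. Nothing says that the RNA samples of a line were separate embryo collections, so p-values among lines measure only the spread between these samples, which may be technical.

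A basement membrane is the thin sheet of extracellular matrix that lies under epithelia and around muscles and nerve cord. Laminin, a trimer of an alpha, a beta and a gamma chain, begins the sheet, and a network of collagen IV, itself a trimer, is added to it and gives it strength. In fly embryos much of this matrix is secreted by haemocytes, the migrating blood cells, and by fat body. Col4a1 and vkg are neighbours on chromosome arm 2L, with 0 genes between them in the RefSeq table of Release 6.

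Values are quantile-normalised intensities in arbitrary units, and a mean ± SD is taken over the means of the 9 lines. Differences are on the scale of log2(intensity + 16), which understates the change of dim probe sets, and levels of different genes cannot be set against each other. Deposited total intensity ranged from 46261 to 309710 per array, and between 3152 and 8128 probe sets per array lay above a limit set by negative-control probe sets. Of the 10 probe sets, 7 were above it on at least 18 of 36 arrays, as were 6179 of 18769 in all, which are called measured below. The exceptions were vkg, Glt and the dimmer Pxn probe set. Whole embryos were sampled, so more cells of a type and more RNA per cell cannot be told apart.

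Laminin, papilin, SPARC and vkg transcripts rose between the sampled times. At an adjusted p under 0.05, 6 of the 10 probe sets were higher at 8 h than at 5 h and 0 were lower, where 3.85% of all probe sets and 9.69% of measured ones were higher, 3.67% were lower and 7.52% were called either way. Those called were LanA, LanB1, LanB2, Ppn, SPARC and vkg. Col4a1 had nearly the mean change of LanA with a wider error and was not called, and neither were Glt and both Pxn probe sets. The times were compared with limma over line means with the line as a block, so the lines are the replicates. Over all probe sets 723 were higher and 688 lower at 8 h, and on the deposited scale 328 were higher and 2948 lower.

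**Figure D1:**
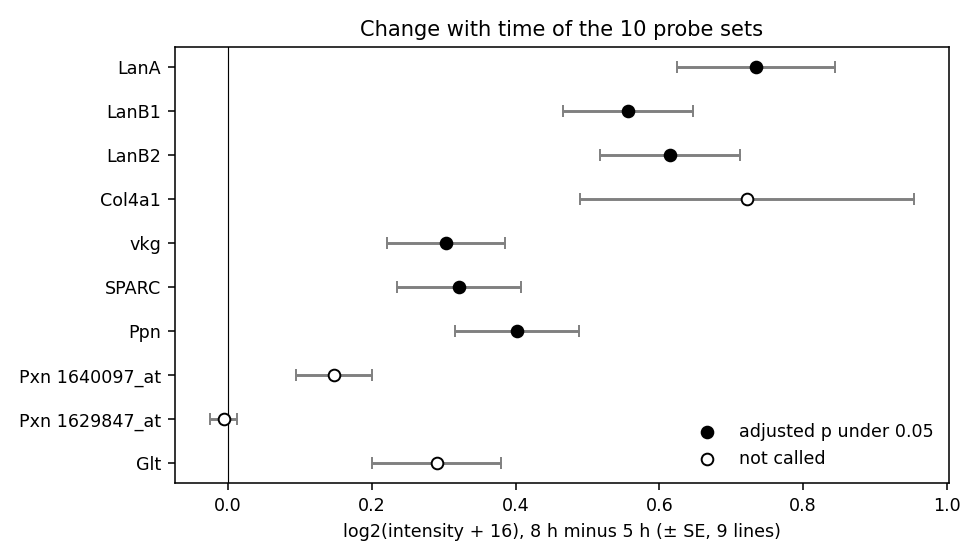
Change of each probe set on the log2(intensity + 16) scale, 8 h minus 5 h, with bars for the standard error over 9 lines. Filled points passed an adjusted p of 0.05, the laminins lie between 0.56 and 0.73, and Col4a1, at 0.72, has the widest error.

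LanA, a laminin alpha chain, averaged 29.0 ± 23.7 at 8 h and 10.0 ± 11.95 at 5 h (SD, n = 9). Over single arrays it spanned 3.38 to 90.7 with a median of 18.5 at 8 h, and 1.48 to 46.9 with a median of 5.05 at 5 h. The times overlapped over all arrays, but in 8 of 9 lines every 8 h sample was above every 5 h sample, with line Drosophila_75 the exception. The change was 0.73 ± 0.11 (SE, limma adjusted p = 0.00019), with 9 of 9 lines higher at 8 h.

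LanB1, the laminin beta chain, averaged 17.3 ± 12.5 at 8 h and 5.68 ± 4.35 at 5 h (SD, n = 9), a change of 0.56 ± 0.09 (SE, limma adjusted p = 0.00039). LanB2, the gamma chain, averaged 19.3 ± 16.3 at 8 h and 5.68 ± 5.08 at 5 h (SD, n = 9), a change of 0.61 ± 0.10 (SE, limma adjusted p = 0.00031). Both were higher at 8 h in 9 of 9 lines, as were 2.42% of all probe sets and 5.96% of measured ones. The laminin genes were called in 18 of 18 alternative fits, with changes of 0.31 to 1.25 for LanA, 0.21 to 1.05 for LanB1 and 0.24 to 1.13 for LanB2.

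Line Drosophila_58 led the laminins already at 5 h. LanA read 35.5 and 46.9 in its samples, against 1.48 to 15.5 in the other lines' arrays at that time. LanB1 read 14.1 and 18.8 there, against at most 10.4 in the others, and LanB2 read 18.2 and 19.9, against at most 8.57. No other line's 5 h samples overlapped those of line Drosophila_58 in these genes. Its 5 h mean of LanA, 41.2, was above the 8 h mean of 7 of the other 8 lines.

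At 8 h LanA read 74.2 and 90.7 in line Drosophila_58, 40.2 and 52.5 in line Drosophila_83, 36.4 and 30.9 in line Drosophila_145 and 42.9 and 18.8 in line Drosophila_134. It read 19.4 and 15.9 in line Drosophila_23, 17.3 and 17.02 in line Drosophila_128, 17.2 and 14.5 in line Drosophila_89, 3.38 and 18.2 in line Drosophila_75 and 6.41 and 5.84 in line Drosophila_17. Line Drosophila_58 did not overlap any other line. The samples of line Drosophila_83 did not overlap those of line Drosophila_145 but did overlap those of line Drosophila_134, and from line Drosophila_145 down the samples of neighbours overlapped.

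LanB1 and LanB2 kept much of this order, with exceptions. LanB1 at 8 h read 30.0 and 46.2 in line Drosophila_83 and 26.3 and 46.6 in line Drosophila_58, which overlapped. LanB2 at 8 h read 47.6 and 65.5 in line Drosophila_58, against 20.8 and 42.1 in line Drosophila_83 and 24.0 and 25.6 in line Drosophila_134. Line Drosophila_145, the third line for LanA, was next to last for LanB2 at 6.06 and 9.72. At 5 h, LanB1 was below 11 in every array outside line Drosophila_58.

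**Figure D2:**
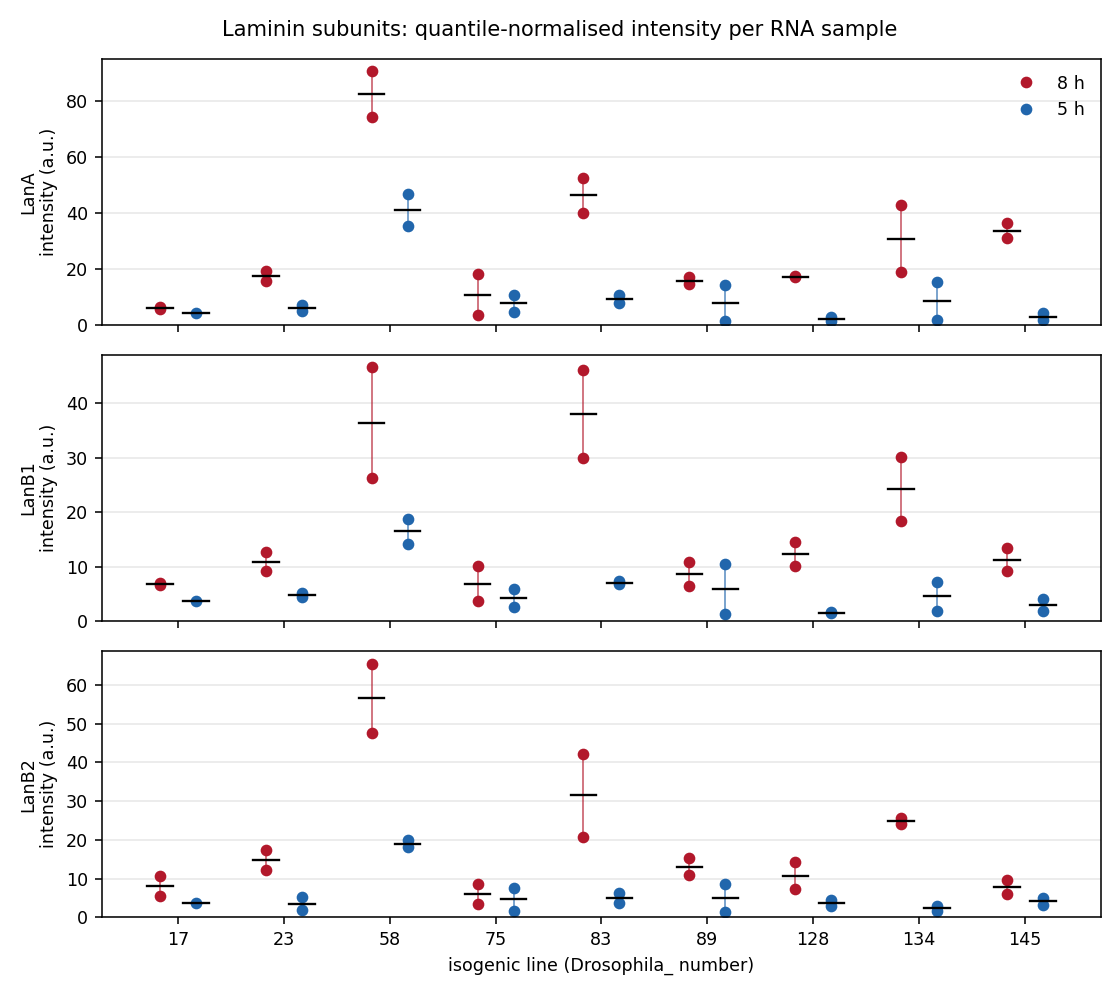
Quantile-normalised intensity (arbitrary units) of the laminin genes in each RNA sample by line, with 8 h at the left and 5 h at the right of each line. Points are RNA samples, vertical lines join samples of a line and time, and short bars are their means. Line Drosophila_58 is above every other line at 5 h and reaches 90.7 for LanA at 8 h.

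Col4a1, a collagen IV chain, averaged 41.6 ± 43.9 at 8 h and 11.1 ± 7.13 at 5 h (SD, n = 9). The change of 0.72 ± 0.23 was not called (SE, limma adjusted p = 0.061), with 6 of 9 lines higher at 8 h. Line means at 8 h were 110 in line Drosophila_134, 92.1 in line Drosophila_89, 89.1 in line Drosophila_83 and 44.9 in line Drosophila_58, and 0.826 to 12.9 in the other 5. Line Drosophila_23 had the opposite direction, with 1.56 and 0.0898 at 8 h and 4.93 and 26.4 at 5 h. Col4a1 was called in 8 of 18 alternative fits, among them those without line Drosophila_23 (0.92, adjusted p = 0.015), Drosophila_75 (0.83, adjusted p = 0.030) or Drosophila_145 (0.85, adjusted p = 0.037) and that on the deposited scale (0.47, adjusted p = 0.040). It was not called with array brightness as a covariate (0.39, adjusted p = 0.57). Nor was it without line Drosophila_83 (0.55, adjusted p = 0.20), Drosophila_89 (0.57, adjusted p = 0.18) or Drosophila_134 (0.55, adjusted p = 0.18).

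vkg, the other collagen IV chain, averaged 7.28 ± 7.38 at 8 h and 2.08 ± 1.73 at 5 h (SD, n = 9), a change of 0.30 ± 0.08 (SE, limma adjusted p = 0.025) with 7 of 9 lines higher at 8 h. It exceeded the negative-control limit on 11 of the 18 later arrays and 6 of the 17 earlier ones. At 8 h it read 22.7 and 23.7 in line Drosophila_134, against 0.232 and 0.22 in line Drosophila_23. Ordered by mean intensity at 8 h, the 9 lines stood in the same order for vkg as for Col4a1. The call was lost without line Drosophila_83 (adjusted p = 0.085), Drosophila_89 (adjusted p = 0.059) or Drosophila_134 (adjusted p = 0.058), with a pseudocount of 64 (0.10, adjusted p = 0.058) and with array brightness as a covariate (0.20, adjusted p = 0.37), so that it was called in 12 of 17 alternative fits.

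SPARC, a collagen-binding glycoprotein, averaged 9.02 ± 7.95 at 8 h and 3.10 ± 1.92 at 5 h (SD, n = 9), a change of 0.32 ± 0.09 (SE, limma adjusted p = 0.022) with 5 of 9 lines higher at 8 h. Line Drosophila_134 had 23.8 and 20.1 at 8 h and 4.95 and 2.14 at 5 h, and line Drosophila_58 had 17.9 and 16.4 at 8 h and 4.69 and 7.64 at 5 h. In both lines the times did not overlap, while line Drosophila_128 stayed low, at 0.0655 and 0.606 at 8 h and 1.85 and 0.174 at 5 h. The SPARC call was lost without line Drosophila_58 (adjusted p = 0.060), Drosophila_83 (adjusted p = 0.070), Drosophila_89 (adjusted p = 0.061) or Drosophila_134 (adjusted p = 0.066), and with array brightness as a covariate (0.26, adjusted p = 0.25).

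**Figure D3:**
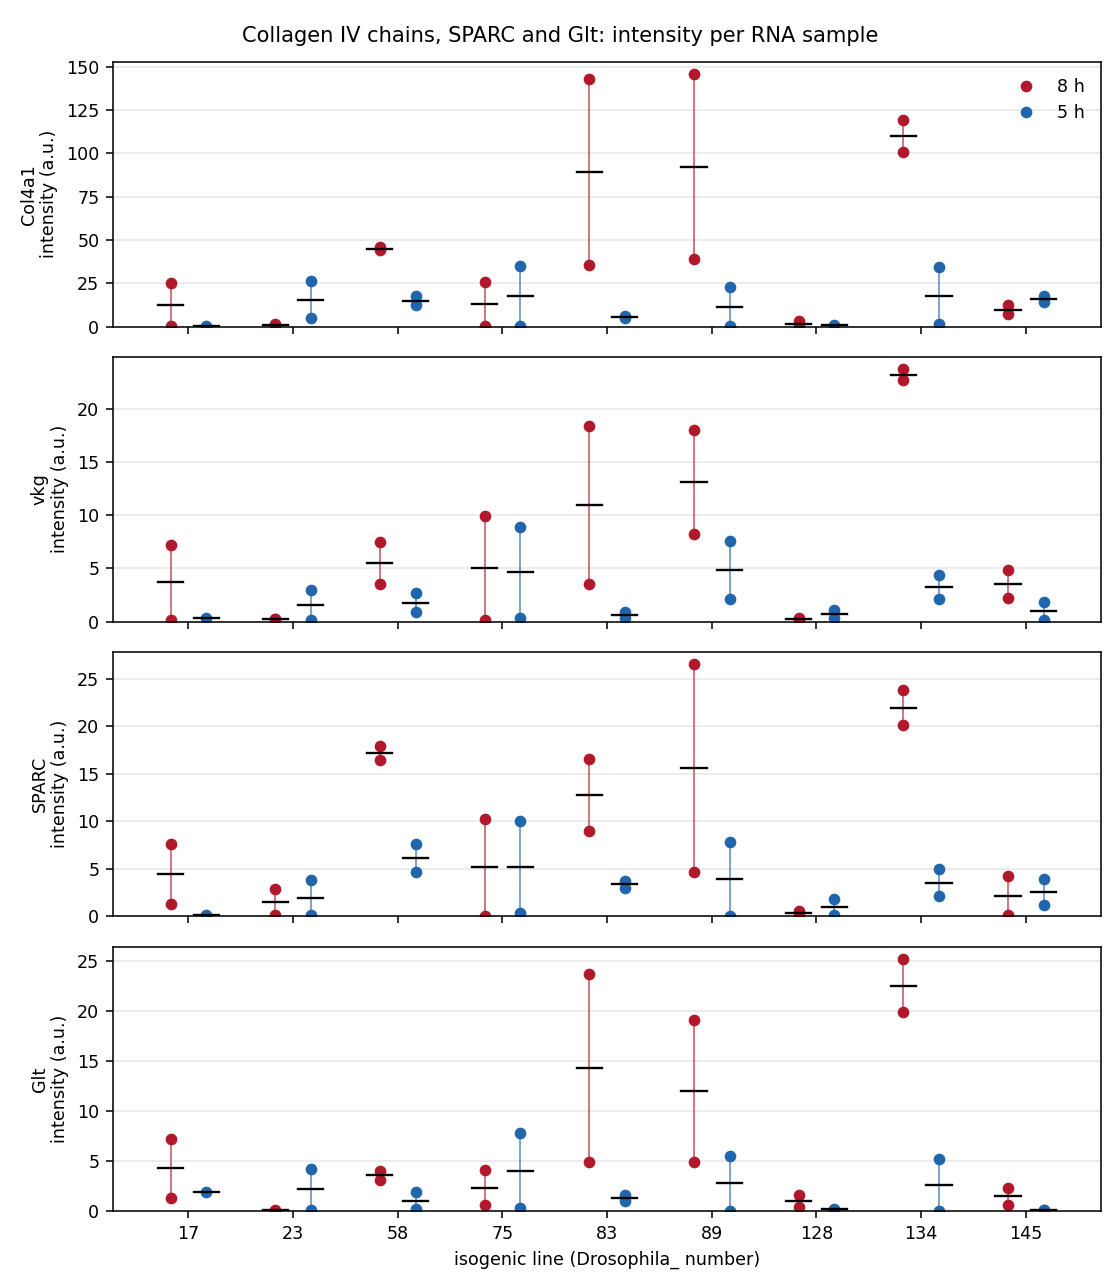
Quantile-normalised intensity (arbitrary units) of Col4a1, vkg, SPARC and Glt in each RNA sample by line, with 8 h at the left and 5 h at the right of each line, drawn as for the laminins. Line Drosophila_134 has the highest 8 h mean in each gene, 110 for Col4a1, and in line Drosophila_75 one sample of each pair of Col4a1 lies near 0.

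Ppn, papilin, a secreted matrix glycoprotein, averaged 12.6 ± 13.2 at 8 h and 4.48 ± 5.04 at 5 h (SD, n = 9), a change of 0.40 ± 0.09 (SE, limma adjusted p = 0.0049). It was higher at 8 h in 8 of 9 lines and was called in 18 of 18 alternative fits. Line Drosophila_58 led it, with 37.9 and 47.5 at 8 h and 13.3 and 19.7 at 5 h, and line Drosophila_17 was lowest at 8 h, with 0.624 and 0.0611 there and 1.46 at 5 h.

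Glt, glutactin, a basement membrane glycoprotein, averaged 6.87 ± 7.72 at 8 h and 1.82 ± 1.29 at 5 h (SD, n = 9) and was not called (0.29 ± 0.09, limma adjusted p = 0.051). In line Drosophila_134 it read 19.9 and 25.2 at 8 h and 5.24 and 0.0736 at 5 h, which did not overlap. Glt was called in 6 of 17 alternative fits, those without line Drosophila_75 (0.34, adjusted p = 0.020) or Drosophila_23 (0.35, adjusted p = 0.026) among them. It was not called with array brightness as a covariate (0.14, adjusted p = 0.59) or without line Drosophila_134 (0.19, adjusted p = 0.14).

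Pxn, peroxidasin, a matrix peroxidase that cross-links collagen IV, averaged 3.70 ± 2.85 at 8 h and 1.60 ± 0.989 at 5 h with its brighter probe set (SD, n = 9) and was not called (0.15 ± 0.05, limma adjusted p = 0.10). Its highest 8 h samples were 11.3 in line Drosophila_58 and 11.1 in line Drosophila_134, whose partner samples read 5.14 and 3.81. The dimmer Pxn probe set exceeded the limit on 0 of the 18 later arrays and 1 of the 17 earlier ones, and gives no level for the gene.

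The lines differed in these genes. The tests at 8 h and at 5 h were separate, and the test of line by time, which compares them, called 0 of 10, where 1.37% of all probe sets were called. Over both times, limma's moderated F test among lines called 10 of 10 probe sets, where 19.5% of all and 51.4% of measured probe sets were called. At 8 h it called 9 of 10, the dim Pxn probe set being the exception, where 18.4% of all and 44.2% of measured ones were called. At 5 h it called 2 of 10, LanA (adjusted p = 0.00049) and LanB2 (adjusted p = 0.025), where 7.45% of all and 21.1% of measured ones were called. The line means of Col4a1 spanned 2.90 log2 units at 8 h and 0.98 at 5 h, and those of LanA spanned 2.15 at 8 h and 1.65 at 5 h. Without line Drosophila_58 the counts were 8 over both times, 9 at 8 h and 0 at 5 h. Leaving out its first or second 5 h sample gave 1 or 0 at 5 h, and leaving out either 5 h sample of line Drosophila_89 gave 4.

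Line Drosophila_58 stood above the other 8 lines in 6 of the 10 probe sets and below in 0, where 5.1% of all and 11.3% of measured probe sets were higher in it. LanA was higher by 1.42 ± 0.13 (SE, limma adjusted p = 1.5e-09), LanB2 by 1.05 ± 0.10 (adjusted p = 3.4e-09), Ppn by 1.05 ± 0.12 (adjusted p = 1.6e-07) and LanB1 by 0.75 ± 0.10 (adjusted p = 3.0e-06). These 4 were called in 42 of 42 alternative fits. SPARC (0.40 ± 0.13, adjusted p = 0.040) and the brighter Pxn probe set (0.23 ± 0.07, adjusted p = 0.027) were higher too. Without the second 8 h sample of the line they were not called, SPARC at 0.42 (adjusted p = 0.14) and Pxn at 0.13 (adjusted p = 0.57). SPARC was called in 28 of 42 alternative fits and Pxn in 39 of 42. SPARC was lost also with array brightness (0.37, adjusted p = 0.22), with a pseudocount of 64 (0.13, adjusted p = 0.071) and without the first (0.45, adjusted p = 0.092) or second (0.36, adjusted p = 0.28) 5 h sample of the line. The collagen IV genes of this line were not called, with Col4a1 at 0.49 ± 0.28 (adjusted p = 0.43) and vkg at -0.04 ± 0.11 (adjusted p = 0.93). The summed intensity of 16 haemocyte markers was 85.03 and 107 at 8 h and 61.3 and 53.9 at 5 h in this line, against 28.4 to 100.2 at 8 h and 17.5 to 48.3 at 5 h in the others. Over the lines, most of the haemocyte sum comes from srp, gcm, ush, drpr and PPO2, which averaged 8.06 to 12.1 at 8 h. The fat body sum was 144.8 and 153 at 8 h and 54.4 and 103 at 5 h, against 8.03 to 209 (median 68.5) at 8 h and 3.25 to 59.4 (median 15.6) at 5 h in the others. Over the lines, the fat body sum is mostly the signal of a single gene, apolpp. The muscle sum was 123 and 111 at 8 h and 33.3 and 61.8 at 5 h, against medians of 54.6 at 8 h and 12.3 at 5 h in the others. The part of these cell types in the contrasts was not tested.

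After quantile normalisation, line Drosophila_134 stood above the other 8 lines in the collagen IV genes, but on the deposited scale line Drosophila_89 did. Col4a1 was higher by 1.05 ± 0.28 (SE, limma adjusted p = 0.016), vkg by 0.52 ± 0.11 (adjusted p = 0.0032), Glt by 0.50 ± 0.11 (adjusted p = 0.0049) and SPARC by 0.41 ± 0.13 (adjusted p = 0.042). In alternative fits Col4a1 was called in 36 of 42, vkg in 38 of 41, Glt in 36 of 41 and SPARC in 24 of 42. SPARC was lost with a pseudocount of 4, among others (0.86, adjusted p = 0.061). The dimmer Pxn probe set, with a measurable signal on 1 array in all, was higher by 0.15 ± 0.03 (adjusted p = 0.0024). On the deposited scale Col4a1 of line Drosophila_134 stood at 0.45 (adjusted p = 0.31), vkg at 0.14 (adjusted p = 0.45), Glt at 0.13 (adjusted p = 0.45) and SPARC at 0.04 (adjusted p = 0.90). On that scale Col4a1 was higher in line Drosophila_89 by 0.81 (adjusted p = 0.037), vkg by 0.41 (adjusted p = 0.0066) and Glt by 0.30 (adjusted p = 0.035), and with centred medians the same 3 were called in that line, at 0.80, 0.40 and 0.29. With a common 90th percentile the calls were those of line Drosophila_134, with Col4a1 at 1.06 (adjusted p = 0.011). Without the first 5 h sample of line Drosophila_134 its Col4a1 stood at 0.66 (adjusted p = 0.28). Its laminins were not called, LanA standing at 0.08 ± 0.13 (adjusted p = 0.80). The 8 h arrays of this line were dim, with total deposited intensities of 74632 and 46261, against 56832 to 266525 in the others at that time. With array brightness as a covariate this line's contrasts were not called. Col4a1 stood at 0.89 (adjusted p = 0.52), vkg at 0.38 (adjusted p = 0.48) and Glt at 0.33 (adjusted p = 0.56) in that fit. SPARC stood at 0.46 (adjusted p = 0.44) and the dimmer Pxn probe set at 0.13 (adjusted p = 0.38). The muscle marker sums of this line were 258 and 200.3 at 8 h, against 2.51 to 322 in the others, and their part was not tested.

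Over all lines, 15 of 90 combinations of probe set and line were called against the other 8, where 3.87% were called over all probe sets. The remaining ones were LanB1, higher in line Drosophila_83 by 0.50 ± 0.10 (SE, limma adjusted p = 0.0081), and 3 that were lower. LanA was lower in line Drosophila_17 (-0.63 ± 0.16, adjusted p = 0.041), LanB2 in line Drosophila_75 (-0.35 ± 0.10, adjusted p = 0.023) and Col4a1 in line Drosophila_128 (-1.01 ± 0.28, adjusted p = 0.040).

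Within single lines, 17 of 90 changes with time were called, all of them higher at 8 h, where 2.28% were called and 1.22% were called higher over all probe sets. Line Drosophila_134 held 8 of them, line Drosophila_83 held 5, line Drosophila_58 held 2, and lines Drosophila_23 and Drosophila_145 held 1 each. Of all probe sets, 8.15%, 2.82%, 1.55%, 4.23% and 1.70% were called either way in these lines, in the order named. Line Drosophila_134 thus had the most calls over all probe sets too. Col4a1 changed by 2.09 ± 0.52 in line Drosophila_134 (SE, limma adjusted p = 0.0084) and by 2.07 ± 0.52 in line Drosophila_83 (adjusted p = 0.020). LanA changed by 1.39 ± 0.25 in line Drosophila_145 (adjusted p = 0.0013) and by 1.30 ± 0.25 in line Drosophila_83 (adjusted p = 0.0017). On the deposited scale 3 of 90 were called, Col4a1 in line Drosophila_89 (1.47, adjusted p = 0.034) and LanB2 in lines Drosophila_58 (0.78, adjusted p = 0.045) and Drosophila_83 (0.73, adjusted p = 0.042), so that none of the 8 in line Drosophila_134 was. Without the second 5 h sample of line Drosophila_134, 10 of 90 were called. The test of line by time called 0 of 10, as above. At an unadjusted p under 0.05 it counted 9 of 10, where 11.99% of all and 26.5% of measured probe sets did, and Col4a1 (adjusted p = 0.055) and LanB2 (adjusted p = 0.063) came nearest to the threshold.

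**Figure D4:**
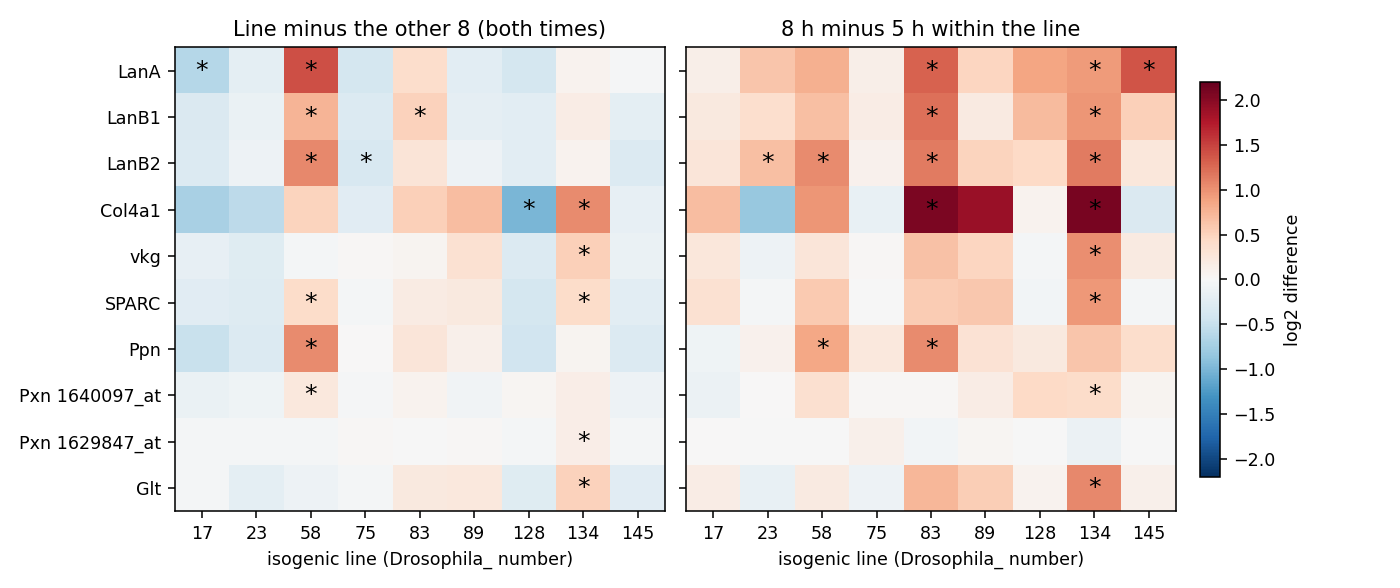
Log2 difference of each probe set for each line, as the line minus the other 8 over both times (left panel) and as 8 h minus 5 h within the line (right panel). Asterisks mark an adjusted p under 0.05, 15 at the left and 17 at the right. Laminins and Ppn of line Drosophila_58 and the collagen IV genes of line Drosophila_134 stand out at the left. The collagen IV contrasts were not called on the deposited scale or with array brightness as a covariate.

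Col4a1 differed widely within pairs of RNA samples that share line and time, a pattern singled out after its values were seen. At 8 h it read 0.248 and 25.6 in line Drosophila_75, 24.9 and 0.518 in line Drosophila_17, 35.4 and 143 in line Drosophila_83 and 146 and 38.8 in line Drosophila_89. At 5 h it read 34.9 and 0.449 in line Drosophila_75, 22.9 and 0.159 in line Drosophila_89, 34.4 and 1.31 in line Drosophila_134 and 4.93 and 26.4 in line Drosophila_23. These 8 of 17 pairs differed by over 1 log2 unit, and 6 of 6179 measured probe sets, 0.0971%, had as many, Col4a1 itself included. On the log2(intensity + 16) scale a pair passes 1 only where a sample reads over 16, and 91.3% of all values lay under 16. Dim probe sets could not reach that difference, so this share and the percentiles below depend on brightness too. The SD within pairs was 0.70 for Col4a1, at the 99.7th percentile of measured probe sets, and most of the other genes were also widely spread. It was 0.30 for LanA and SPARC, at the 96.9th and 97.0th percentiles, 0.29 for Ppn (96.4th), 0.27 for Glt (95.5th) and vkg (95.1st), and 0.22 for LanB1 (90.05th) and LanB2 (89.3rd).

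Other genes moved with Col4a1 between the samples of a pair. Over 17 pairs its difference followed that of vkg (Pearson r = 0.91, Spearman rho = 0.84), SPARC (r = 0.89, rho = 0.90) and Glt (r = 0.93, rho = 0.84), each with a permutation p of 2e-05 for r, the smallest these permutations can give, and 6.5e-05 after adjustment over 13 relations. Without the 2 pairs farthest from the median of Col4a1, r was 0.86 for vkg, 0.87 for SPARC and 0.91 for Glt. LanA followed less closely (r = 0.71, rho = 0.79, permutation p = 0.0015, adjusted p = 0.0024, r = 0.70 without the 2 pairs).

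The summed intensity of 5 muscle marker genes also moved with Col4a1 (r = 0.88, rho = 0.93, permutation p = 2e-05, adjusted p = 6.5e-05, r = 0.91 without the 2 pairs), with the same sign in 16 of 17 pairs. That sum was 2.51 and 79.2 at 8 h and 112 and 4.54 at 5 h in line Drosophila_75, in the order of its Col4a1 samples. Marker sums and total intensity were taken as plain log2, without the added 16. Their r values are therefore on another scale than those of single genes. A developmental score, the mean of the 200 probe sets that rose most in the other lines minus that of the 200 that fell most, with only the 10 probe sets of the 9 chosen genes left out, also moved with Col4a1 (r = 0.79, rho = 0.79, permutation p = 0.00018, adjusted p = 0.00047, r = 0.82 without the 2 pairs). The marker genes were not left out, so the score and the marker sums may share genes. The summed intensity of 5 fat body markers moved with Col4a1 as well (r = 0.72, rho = 0.67, permutation p = 0.001, adjusted p = 0.0019, r = 0.70 without the 2 pairs). That sum is mostly the signal of apolpp, which averaged 71.8 at 8 h, where Fbp1, Fbp2, Lsp2 and Yp1 averaged 0.402 to 0.895. Most of the haemocyte sum comes from srp, gcm, ush, drpr and PPO2. Hml, NimC1, He and eater, also in it, were each above the limit on at most 1 array at either time. The haemocyte marker sum (r = 0.26, rho = 0.20, permutation p = 0.32, adjusted p = 0.34, r = 0.29 without the 2 pairs) and the total deposited intensity (r = -0.21, rho = -0.02, permutation p = 0.42, adjusted p = 0.42, r = -0.08 without the 2 pairs) did not pass the threshold. Their part in the differences was not tested.

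**Figure D5:**
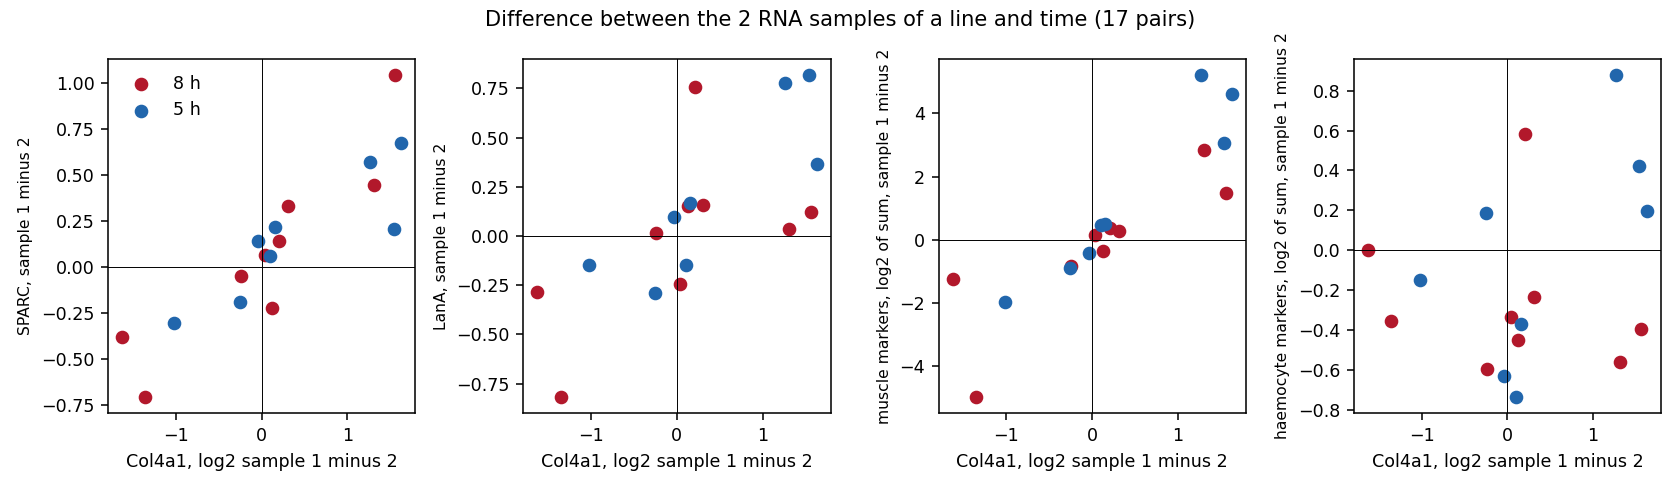
Difference between the RNA samples of a line and time (sample 1 minus sample 2, log2) for Col4a1 on the x axis and, from left to right, SPARC, LanA, the summed muscle markers and the summed haemocyte markers on the y axis, for 17 pairs at 8 h and 5 h. SPARC (r = 0.89) and the muscle sum (r = 0.88) lie along a line with Col4a1, and the haemocyte sum (r = 0.26) is scattered.

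Across the 9 lines at 8 h, laminin subunits varied together, and Col4a1 varied with vkg and as closely with SPARC, which is not a collagen IV chain. Genes that encode neither laminin nor collagen IV also came close over the means of line and time, as listed further on. Col4a1 correlated with vkg (r = 0.93, rho = 0.95, exact permutation adjusted p = 0.0002, r = 0.93 without the 2 lines farthest from the median) and with SPARC (r = 0.95, rho = 0.92, exact permutation adjusted p = 0.0025, r = 0.92 without them). LanB1 correlated with LanB2 (r = 0.92, rho = 0.80, exact permutation adjusted p = 0.0025, r = 0.86 without them) and LanA with LanB1 (r = 0.89, rho = 0.88, exact permutation adjusted p = 0.0025, r = 0.73 without them). LanA and LanB2 (r = 0.87, rho = 0.70, exact permutation adjusted p = 0.0061) fell to r = 0.50 without those lines, and so rest on them. LanB1 against Col4a1 did not pass (r = 0.60, rho = 0.30, exact permutation adjusted p = 0.11). The p-values were adjusted over 12 relations, 6 at each time.

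At 5 h LanA and LanB1 correlated (r = 0.98, rho = 0.87, exact permutation adjusted p = 0.00045, r = 0.84 without the 2 lines). LanA with LanB2 (r = 0.94, rho = 0.52, exact permutation adjusted p = 0.048), LanB1 with LanB2 (r = 0.92, rho = 0.58, exact permutation adjusted p = 0.034) and Col4a1 with SPARC (r = 0.71, rho = 0.47, exact permutation adjusted p = 0.048) rest on 2 lines, with r of 0.13, 0.41 and 0.06 without them. Col4a1 and vkg did not pass at 5 h (r = 0.48, rho = 0.42, exact permutation adjusted p = 0.21).

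The developmental score of the lines ran at 8 h from -0.75 in line Drosophila_75 to 1.12 in line Drosophila_134, with line Drosophila_58 at 0.87 and line Drosophila_83 at 0.70. At 5 h it ran from -1.42 in line Drosophila_17 to -0.29 in line Drosophila_58. Across lines at 8 h, LanB1 (r = 0.86, rho = 0.88, exact permutation adjusted p = 0.024, r = 0.84 without the 2 lines) and LanB2 (r = 0.85, rho = 0.87, exact permutation adjusted p = 0.024, r = 0.90 without them) were higher where the score was higher. LanA (r = 0.76, rho = 0.80, exact permutation adjusted p = 0.069) and Col4a1 (r = 0.63, rho = 0.32, exact permutation adjusted p = 0.11) did not pass, and none of the 8 genes passed at 5 h, among 16 relations. The part of embryo stage in the line differences was not tested.

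Of 32 further basement membrane genes, 30 had a probe set, and 9 were higher at 8 h and 0 lower, with a median change of 0.06 against 0.001 over all genes. With 1 probe set a gene, 4.62% of all genes were higher, 5.05% lower and 9.66% called either way. This list too was drawn up with earlier results of these data known. Among other matrix components 5 of 7 were called, namely trol, perlecan (0.28 ± 0.07, limma adjusted p = 0.018), Ndg, nidogen (0.26 ± 0.08, adjusted p = 0.046), wb, the other laminin alpha chain (0.19 ± 0.05, adjusted p = 0.023), Tig, tiggrin (0.30 ± 0.09, adjusted p = 0.035) and prc, pericardin (0.24 ± 0.07, adjusted p = 0.027). Of the 7, only 3 were measured, and prc exceeded the negative-control limit on 10 of the 18 later arrays and 2 of the 17 earlier ones. For trol, with 8 probe sets, and wb, with 3, only the brightest probe set is given. Among receptors 2 of 9 were called, the integrin chains mys (0.23 ± 0.06, adjusted p = 0.012) and mew (0.14 ± 0.04, adjusted p = 0.040), and Dg, dystroglycan, was not (0.04 ± 0.04, adjusted p = 0.60).

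Among genes of collagen synthesis and export 2 of 5 were called, and both modify collagen chains. PH4alphaEFB, a prolyl hydroxylase subunit, averaged 14.1 ± 9.02 at 8 h and 3.96 ± 3.52 at 5 h (SD, n = 9; 0.54 ± 0.08, limma adjusted p = 0.00014) and was higher at 8 h in 9 of 9 lines. Plod, a lysyl hydroxylase, averaged 10.2 ± 6.999 at 8 h and 5.23 ± 2.63 at 5 h (SD, n = 9; 0.26 ± 0.06, limma adjusted p = 0.010). None of 5 integrin-linked adhesion genes and none of 4 remodelling genes were called, and Fit1 and Mmp1 were not analysed here. The count of 9 was 5 without line Drosophila_58 or Drosophila_89 and 3 without line Drosophila_83 or Drosophila_134.

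Some markers of cell types that make or border this matrix were higher at 8 h, as were 4.62% of all genes. The median change was 0.05 for haemocyte, 0.0023 for fat body and 0.49 for muscle markers, against 0.001 over all genes. Of 16 haemocyte markers 6 were higher at 8 h (srp, gcm, ush, crq, drpr and PPO2), and their summed intensity was 28.4 to 107 at 8 h and 17.5 to 61.3 at 5 h, while Hml, NimC1, He and eater were each above the limit on at most 1 array at either time. Of 5 fat body markers 1 was higher, apolpp (0.95 ± 0.19, limma adjusted p = 0.0032), and the sum was 8.03 to 209 at 8 h and 3.25 to 103 at 5 h, with Fbp1, Fbp2, Lsp2 and Yp1 above the limit on at most 2 arrays at either time. Of 5 muscle markers 2 were higher, Act87E and Mlc1, and the sum was 2.51 to 322 at 8 h and 2.45 to 112 at 5 h. The part of these cell types in the changes was not tested.

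Over the 18 means of line and time, the genes most like the mean of the laminins, of 5201 candidates, were Ance (r = 0.98), CG6891 (r = 0.97), E(spl)m3-HLH (r = 0.96), TRAM (r = 0.96) and miple2 (r = 0.95). Those most like the mean of the collagen IV chains were Tm2 (r = 0.97), Mlc1 (r = 0.96), CG5177 (r = 0.95), CG43897 (r = 0.95) and Prm (r = 0.94). Tm2, Mlc1 and Prm encode muscle filament proteins. The points share arrays and the change with time, and these values are a description.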

How the data were processed

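Embryo RNA of 9 lines was measured on 36 arrays. The deposited values are intensities on a linear scale; which software and scaling made them is not given in the sources used here. After 183 control probe sets were left out, intensities were quantile normalised over 18769 probe sets and taken as log2(intensity + 16), and 91.3% of values lay under 16. The negative-control limit was the 99th percentile of 49 control probe sets, recognised by name only. Fits with limma 3.58.1 (R 4.3.3), using trended variance moderation and Benjamini-Hochberg adjustment over all probe sets at 0.05, compared times over 18 means of line and time with the line as a block, and lines over 35 arrays with a mean for each line and time. The 5 h array whose title names no line entered only the normalisation. Correlations used permutation tests in Python 3.11.15 with NumPy 2.4.6 and SciPy 1.17.1. Precision is limited by the number of arrays. The fits were tested on simulated data.

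The members and gene lists were chosen with earlier results of these data known. Named genes are all members, all partner genes past the threshold plus trol, Ndg, wb, mys and Dg, and the 5 genes most like each of the laminin and collagen IV means. Where a gene has several probe sets, that of highest mean was used. Gene names come from the platform annotation, and 13544 of 13647 probe sets with 1 symbol matched the RefSeq table. Alternatives were the deposited scale, centred medians, a common 90th percentile, pseudocounts of 4 and 64, measured probe sets only, array brightness as a covariate, arrays as units, a replicate block, and leaving out each line or array.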

Additional observations from a re-analysis of the deposited data

Results flagged for a closer look

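Among the 9 line means at each time, 5 lay far from the rest by Dixon's test at the 95% level, all at 5 h. Chance marks about 1 in 20 groups. Line Drosophila_58 was the high one for LanA (41.2), LanB1 (16.5), LanB2 (19.1) and Ppn (16.5). Line Drosophila_134 was the high one for the dimmer Pxn probe set (3.01), which was above the negative-control limit on 1 array in all.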

How the results depend on the processing

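The count of basement membrane probe sets higher at 8 h stayed within 4 to 8 when each line was left out, and the counts among lines stayed within 8 to 10 over both times and at 9 at 8 h when each array was. Among lines at 5 h, 4 were called on the deposited scale, with centred medians, with a pseudocount of 4 and among measured probe sets, 1 with a pseudocount of 64, 0 without line Drosophila_58, and 0 to 4 without single arrays. Changes within single lines numbered 3 on the deposited scale, 4 with centred medians and 10 to 21 without single arrays. Line by time, 1 was called with a pseudocount of 64 or array brightness, 2 among measured probe sets, and 0 to 4 without single arrays. Contrasts of 1 line against the others numbered 8 with array brightness and 10 to 19 without single arrays. Partner genes numbered 5 with centred medians, 2 with array brightness and 3 to 10 without single lines. At 5 h, LanA with LanB2 missed the threshold at r = 0.89 with a pseudocount of 4 and 0.96 with 64, and Col4a1 with SPARC at 0.69 with 64. The cause was not tested.

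Directions turned only for differences that were not called. For line Drosophila_134 against the others, LanA, LanB1, LanB2, Ppn and the brighter Pxn probe set stood at -0.28, -0.17, -0.25, -0.22 and -0.012 on the deposited scale. With centred medians LanA, LanB1, LanB2 and Ppn stood at -0.27, -0.16, -0.23 and -0.20, and with array brightness LanB2 and Ppn at -0.24 and -0.13. LanA stood at -0.12 and -0.11 without the first 5 h or first 8 h sample of that line. For line Drosophila_58, vkg stood at 0.0468 on the deposited scale, 0.0269 with centred medians, 0.03 with a pseudocount of 4, 0.0551 with array brightness, and -0.1014 to 0.0312 without single arrays. The change of the dimmer Pxn probe set with time stood at 0.0009 with centred medians, 0.0105 with a common 90th percentile, 0.0003 and 0.0095 without lines Drosophila_83 and Drosophila_134, and -0.0202 to 0.0105 over all alternatives.

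Deviations of RNA samples of the same number correlated between times at r of -0.39 to 0.28 over 8 lines. Such values cannot show whether these samples share anything beyond the number. With a replicate block, 8 probe sets were called with time, 10 partner genes, 10, 2 and 9 probe sets among lines over both times, at 5 h and at 8 h, 2 for line by time, 17 within lines and 14 against the others. The lone 5 h array of line Drosophila_17 could not be left out. Dim signal limits vkg, Glt and Pxn.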

Other observations

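The 5 h array whose title names no line read 5.08 for LanA, 2.86 for LanB1, 4.38 for LanB2, 2.09 for Col4a1, 0.918 for vkg, 2.54 for SPARC, 3.99 for Ppn and 0.143 for Glt.

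Muscle genes led the list of measured genes whose difference between the RNA samples of a pair was most like that of Col4a1, a list drawn up after the values were seen. Over 17 pairs, r was 0.97 for Tm2, 0.95 for Mlp60A, 0.94 for bt and 0.89 for Mf, which encode proteins of the muscle filaments or their attachments. The gut junction genes mesh (0.93) and Ssk (0.91) were also among the first 10. These values are a description, since the pairs share arrays.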
